A study of Mus musculus with 8 samples.

Results

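The genes described here are 33 transcripts of the lysosome: its membrane proteins, its proteases, glycosidases, sulfatases and lipid enzymes, 2 subunits of its proton pump, and the transcription factors TFEB and TFE3. They are a list of gene names, with no threshold on a measured value, looked up in the count table of 41730 rows. Of the 33, 32 passed the filter on low counts and were tested among 13393 genes. The member outside the test was Asah1.

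The libraries come from spheroids of 4T1, a mouse mammary carcinoma cell line grown here as hanging drops. All cells carried a lentivirus, which encoded a scrambled hairpin RNA in the group shCtrl (4 libraries) and a hairpin against Tlr7 in the group shTlr7 (4 libraries). A single hairpin against Tlr7 is named, so a change caused by the loss of Tlr7 cannot be told apart from other effects of that hairpin. Whether replicates are separate cultures is not stated in the labels, so each p-value reflects how far these libraries varied, possibly for technical reasons alone. In bulk RNA, fewer cells of a type and less RNA per cell cannot be told apart.

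Lysosomes are acidic organelles that break down proteins, glycans and lipids delivered by endocytosis and autophagy. Most soluble hydrolases are carried there from the Golgi by mannose 6-phosphate receptors, and a vacuolar-type ATPase (V-ATPase) pumps in the protons that activate them. TFEB and TFE3 are related transcription factors that switch on many lysosomal and autophagy genes through an E-box in their promoters, the CLEAR element, when they are released from the lysosome surface into the nucleus. TLR7, an RNA sensor, works inside endolysosomes and needs their proteases to be cut into its active form.

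The E-box that these factors bind is printed for members where it was found, because the shared promoter element is what groups many lysosomal genes. Promoters were taken from RefSeq (GRCm38.p6), 250 bases before to 50 bases after each annotated start, and 29 of the 33 members had at least 1. An annotated start can lie inside the span given for the gene, as for Ctsl and Ctsa. The letters CACGTG, the core of the E-box, were searched on both strands. The core was present for 11 of the 29 members (37.9%), against 11.5% of the 10399 tested genes with a promoter and 7.15% of all 32851 promoters of this length. Capitals mark the core together with a leading T on either strand where there is one (TCACGTG, read as CACGTGA on the other strand). Each sequence runs 5′ to 3′ on the strand of its gene.
Lamp1, chr8:13159084-13159167, plus strand: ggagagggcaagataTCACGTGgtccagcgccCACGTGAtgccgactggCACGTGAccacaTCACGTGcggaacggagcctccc
Mcoln1, chr8:3500432-3500495, plus strand: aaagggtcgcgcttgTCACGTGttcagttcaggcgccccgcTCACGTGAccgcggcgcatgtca
Ctsa, chr2:164833745-164833799, plus strand: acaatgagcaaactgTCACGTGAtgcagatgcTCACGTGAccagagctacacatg
Gla, chrX:134601178-134601248, minus strand: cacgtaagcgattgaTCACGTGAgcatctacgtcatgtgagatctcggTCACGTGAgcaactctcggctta
Atp6v0d1, chr8:105566046-105566083, minus strand: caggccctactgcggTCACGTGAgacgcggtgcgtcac
Glb1, chr9:114401014-114401051, plus strand: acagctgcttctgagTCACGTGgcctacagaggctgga
Naglu, chr11:101070005-101070042, plus strand: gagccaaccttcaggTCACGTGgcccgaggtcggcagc
Sgsh, chr11:119355518-119355555, minus strand: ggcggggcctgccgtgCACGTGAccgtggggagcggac
Ctsd, chr7:142387904-142387941, minus strand: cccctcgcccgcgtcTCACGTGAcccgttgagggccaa
Gaa, chr11:119267807-119267844, plus strand: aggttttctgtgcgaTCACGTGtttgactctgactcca
Ctsl, chr13:64370735-64370770, minus strand: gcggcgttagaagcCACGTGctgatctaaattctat

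The Lamp1 promoter held 4 cores, those of Mcoln1, Ctsa and Gla held 2 each, and that of Ctsd a further core 245 bases before the start. Of the 11 genes, Ctsl had a core without the leading T.

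**Figure D1:**
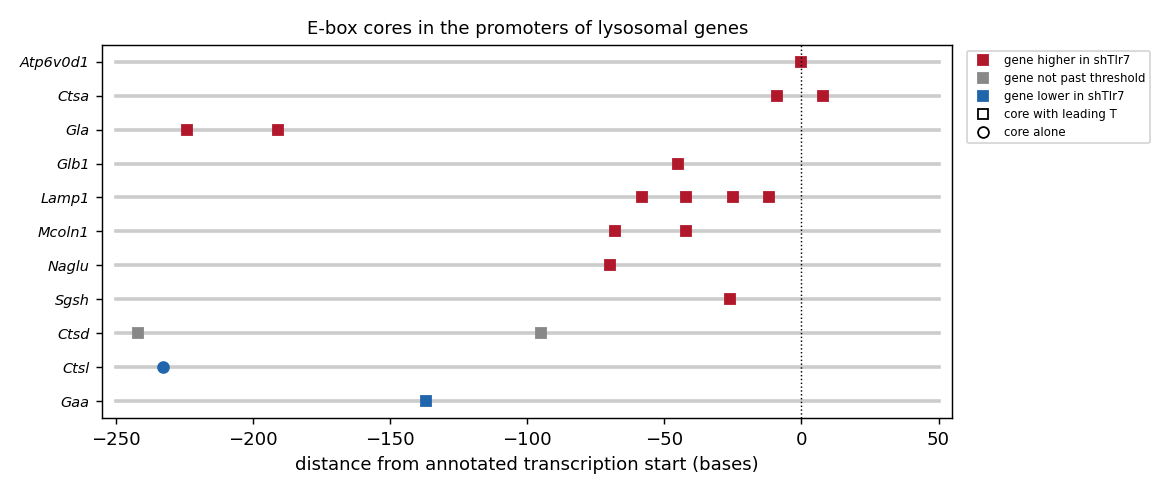
Position of each E-box core along the promoters of the 11 members that have one; the x axis is the distance in bases from the annotated transcription start, grey lines mark the 300 bases searched, and colour gives the gene's call in shTlr7 against shCtrl. The first 8 rows are genes called higher, all with a leading T; Ctsd was not past the threshold, and Ctsl and Gaa were lower.

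Library totals ranged from 18.1 to 93.8 M counts, and levels are given in CPM, counts scaled to library sizes that were adjusted by the TMM method. Tlr7 had 2, 3, 2 and 2 counts in shCtrl and 0, 4, 3 and 0 counts in shTlr7, so a knockdown was not detectable at this depth (log2 fold change -1.02 ± 0.79 SE without the low-count filter, edgeR adjusted p = 0.339). The library numbered 4 of each group stood apart: within groups, pairs that included it had a chi-square per degree of freedom of 10.6 to 20.2, and other pairs of 2.14 to 9.40. Epithelial markers were abundant but differed between the groups: of 8 tested, 5 fell and 2 rose, and their summed level was 6124 to 6636 CPM in shCtrl and 4673 to 5147 CPM in shTlr7. The keratin Krt18, highest over all 8 libraries, fell from a mean of 1412 to 1020 CPM, Krt7 from 1443 to 635 CPM, Krt19 from 651 to 405 CPM, Krt8 from 1154 to 892 CPM and Krt14 from 36.2 to 3.26 CPM. The adhesion genes Epcam (705 to 780 CPM) and Cdh1 (440 to 506 CPM) rose, and Krt5 and Cldn7 had no counts. The part of these shifts in the results on lysosomal genes was not tested. Of 18 macrophage and other leukocyte markers, 15 did not pass the low-count filter, and Adgre1, Lyz2, C1qa and C1qc had no counts in any library. Marker levels were read from the row of the exact symbol, without any row that carries a numbered suffix. A marker row without counts may therefore not mean an absent transcript, as the row of Asah1 shows below. The highest fibroblast and endothelial markers were Pdgfra at 42.3 and 43.6 CPM and Pecam1 at 0.207 and 0.355 CPM.

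Lysosomal transcripts shifted by small amounts and in both directions. Of the 32 tested members, 16 rose in shTlr7, 7 fell and 9 did not pass the threshold (Benjamini-Hochberg adjusted p under 0.05 over all tested genes, from edgeR's quasi-likelihood test). Over all tested genes 56.1% were called, 29.3% higher and 26.8% lower, so the members' count is to be read against a background in which most genes moved. The median log2 fold change was 0.15 for the members and 0.011 for all tested genes. With libraries scaled by their size alone, the median of all tested genes was 0.115 and that of the members 0.255, calls over all genes became 5513 higher and 2491 lower in place of 3927 and 3590, and calls among members became 19 higher and 6 lower.

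Changes were modest in size. Fold changes past 1.5 were found for Cd68 and Grn, both higher, whereas 8.09% of all tested genes were called higher and 8.88% lower with a fold past 1.5 (17.0% in all). A test against a fold of 1.5 (glmTreat) called 0 of the 32 tested members and 1138 of all 13393 tested genes, a small share in each case. In CPM, the 4 shTlr7 libraries lay above all 4 shCtrl libraries for 14 members and below them for 7, where 26.0% and 23.8% of all tested genes did so (49.8% in either direction). Without both libraries numbered 4, 18 members were higher and 8 lower. Calls over all genes rose as well, to 4213 higher and 4046 lower of 13469 tested, from 3927 and 3590 of 13393.

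**Figure D2:**
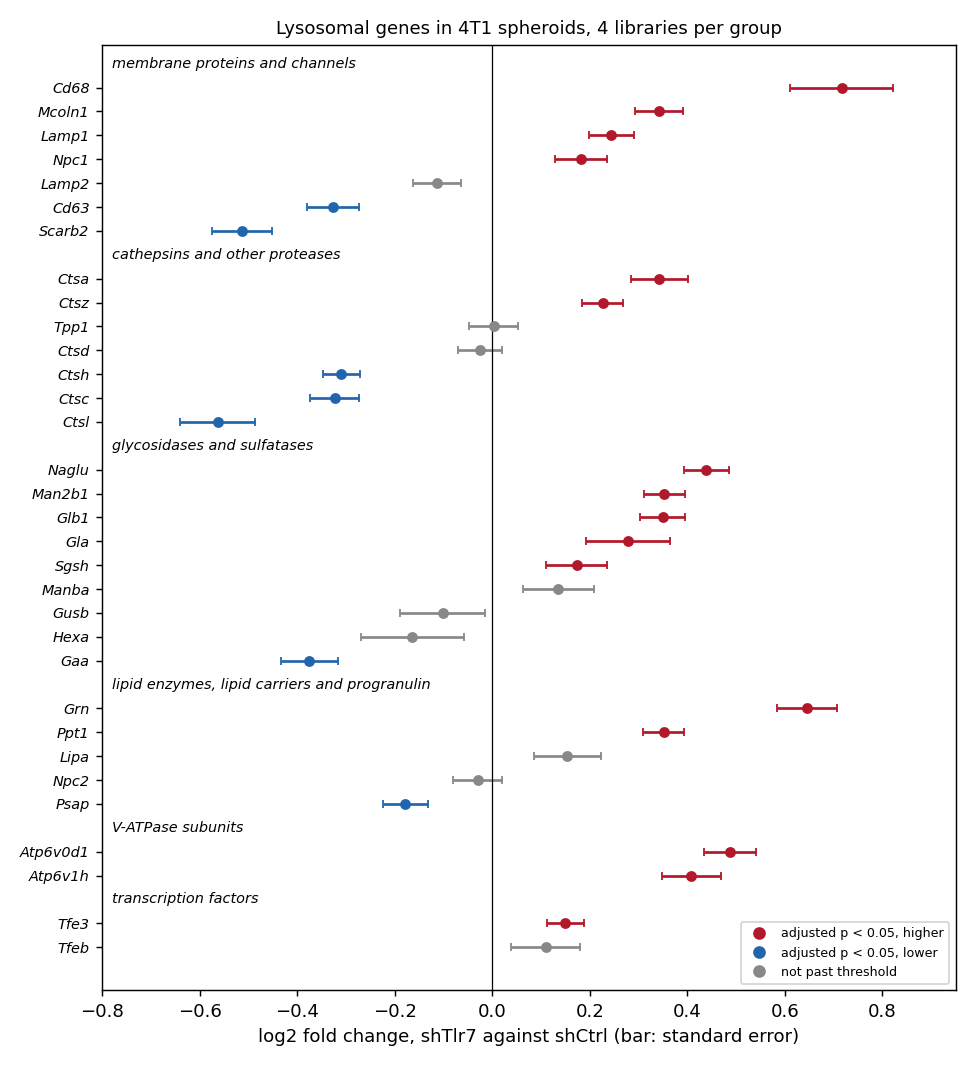
Log2 fold change of shTlr7 against shCtrl (x axis) for the 32 tested members, grouped by role, with bars for the standard error and 4 libraries per group. Values run from -0.56 for Ctsl to 0.72 for Cd68, and the V-ATPase subunits lie to the right of 0 while membrane proteins, proteases and glycosidases lie on both sides.

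Among the 7 membrane proteins and channels, 4 were higher and 2 lower. Cd68, a heavily glycosylated lysosomal membrane protein best known from macrophages (chromosome 11, 69664213 to 69666170, GRCm38.p6), stood at 22.9, 21.9, 22.1 and 26.9 CPM in shCtrl and at 44.0, 40.9, 38.3 and 30.7 CPM in shTlr7. The groups did not overlap, and the replicate numbered 4 was the highest of shCtrl and the lowest of shTlr7. Cd68 thus rose 1.64-fold, with a log2 fold change of 0.72 ± 0.11 (SE; edgeR adjusted p = 1.41e-04). The summed level of the 18 leukocyte markers fell, from between 62.4 and 75.4 CPM in shCtrl to between 16.5 and 24.9 CPM in shTlr7. Most of it was Cd14 (65.4 and 18.5 CPM). The other tested markers, Csf1r (1.14 and 0.241 CPM) and Mrc1 (1.29 and 0.615 CPM), also fell. Of those outside the test, Itgam (0.00506 and 0.189 CPM) and Fcgr1 (0.0815 and 0.270 CPM) stood higher in shTlr7. Fcer1g (0.110 and 0.0200 CPM) and Fcgr3 (0.275 and 0.174 CPM) stood lower. Whether leukocytes bear on the rise of Cd68 was not tested. The pan-leukocyte marker Ptprc stood at 0.135 and 0.179 CPM.

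Scarb2 encodes LIMP-2, the receptor that carries glucocerebrosidase to the lysosome (chromosome 5, 92441311 to 92505657). Its level was 70.1, 75.7, 71.7 and 76.1 CPM in shCtrl against 57.7, 52.4, 50.03 and 46.2 CPM in shTlr7. Every shTlr7 library was below every shCtrl library, with a log2 fold change of -0.51 ± 0.06 (edgeR adjusted p = 1.06e-05). Mcoln1, the gene of the calcium release channel TRPML1 (chromosome 8, 3500519 to 3515232), went up from 43.0, 41.3, 42.7 and 44.7 CPM to 55.8, 50.9, 56.8 and 54.3 CPM. Here too the groups were separate, with a log2 fold change of 0.34 ± 0.05 (edgeR adjusted p = 6.16e-05).

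The paired major membrane glycoproteins differed in call. Lamp1 rose from 564 ± 11.6 to 668 ± 40.02 CPM (mean ± SD, n = 4; edgeR adjusted p = 5.32e-04), whereas Lamp2 stood at 332 ± 13.7 and 307 ± 19.1 CPM (edgeR adjusted p = 0.0647). Lamp2 passed as lower in 4 alternatives, among them DESeq2 (-0.12, adjusted p = 0.0450). The difference between the 2 genes' changes was not tested. Cd63, a tetraspanin of late endosomes and lysosomes, fell from 526 ± 30.1 to 420 ± 26.2 CPM. Npc1, which moves cholesterol out of the lysosome, rose from 50.7 ± 2.35 to 57.6 ± 3.40 CPM.

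The cathepsins, the main lysosomal proteases, went both ways: of 7 proteases, 2 were higher, 3 lower and 2 not past the threshold. Ctsl, a cysteine protease that also cuts endosomal Toll-like receptors (chromosome 13, 64361890 to 64370772), had 1781, 1838, 1809 and 1548 CPM in shCtrl and 1214, 1233, 1273 and 1000 CPM in shTlr7. The highest shTlr7 value was below the lowest shCtrl value, and the library numbered 4 was the lowest of each group. The log2 fold change of -0.56 ± 0.08 (edgeR adjusted p = 6.12e-05) was the largest fall among the members. In the GENCODE M21 annotation, 26.8% of Ctsl exon bases overlap other annotated genes, so some of its reads may belong to them.

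Ctsh, a cysteine aminopeptidase (chromosome 9, 90054267 to 90076095), was nearly constant within groups. Its values were 222, 217, 218 and 219 CPM in shCtrl and 184, 179, 174 and 170 CPM in shTlr7, a log2 fold change of -0.31 ± 0.04 (edgeR adjusted p = 1.12e-05). The coefficient of variation was 1.00% in shCtrl and 3.34% in shTlr7. Ctsc, which activates serine proteases of granules in immune cells, fell from 86.0 ± 2.13 to 68.9 ± 4.47 CPM (log2 fold change -0.32). By contrast, Ctsa, a carboxypeptidase that shields beta-galactosidase and neuraminidase from degradation, rose from 111 ± 10.4 to 141 ± 5.19 CPM, and Ctsz, another carboxypeptidase, from 344 ± 9.91 to 402 ± 18.0 CPM. The aspartic protease Ctsd (502 ± 27.2 and 493 ± 14.6 CPM) and the tripeptidyl peptidase Tpp1 (92.6 ± 4.31 and 92.9 ± 4.97 CPM) had log2 fold changes of -0.026 and 0.0024, within the spread between libraries. For Ctsd and Ctsa, 34.4% and 17.4% of exon bases overlap other annotated genes.

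Of 9 glycosidases and sulfatases, 5 were higher and 1 was lower. Naglu, an enzyme of heparan sulfate breakdown (chromosome 11, 101070090 to 101077672), showed 54.4, 52.6, 51.6 and 52.2 CPM in shCtrl and 74.6, 74.2, 68.4 and 68.6 CPM in shTlr7. No values overlapped, with a log2 fold change of 0.44 ± 0.05 (edgeR adjusted p = 3.52e-06). Man2b1, the lysosomal alpha-mannosidase (chromosome 8, 85082730 to 85098739), moved from 106, 97.7, 101 and 99.2 CPM to 135, 127, 129 and 124 CPM. Glb1, the beta-galactosidase that is read out in senescence staining (chromosome 9, 114401078 to 114474379), moved from 91.9, 89.9, 85.8 and 96.6 CPM to 122, 116, 111 and 115 CPM. Both were separate between groups and had log2 fold changes of 0.35, with edgeR adjusted p of 9.53e-06 for Man2b1 and 2.35e-05 for Glb1.

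The remaining glycan enzymes changed less or not past the threshold. The alpha-galactosidase gene Gla rose by a log2 fold change of 0.28 ± 0.09 (edgeR adjusted p = 0.0136), although the library numbered 4 of shTlr7, at 17.7 CPM, lay within the shCtrl range. Sgsh, a sulfatase of heparan sulfate breakdown, had a log2 fold change of 0.17 ± 0.06 (edgeR adjusted p = 0.0298), and leaving out any of 5 single libraries or using limma-voom took it back over the threshold, with adjusted p from 0.0539 to 0.0930. Of its exon bases, 21.6% overlap another annotated gene. Gaa, the acid alpha-glucosidase that degrades glycogen, was the member of this group that fell, from 184 ± 18.1 to 141 ± 2.51 CPM. Hexa, Gusb and Manba were not past the threshold, at -0.16, -0.10 and 0.14, and 12.8% of Hexa exon bases overlap another gene. The shCtrl replicate 4 had less Gusb (132 CPM) than the other shCtrl libraries (169 to 175 CPM), and without it the Gusb log2 fold change was -0.20 (edgeR adjusted p = 0.00382).

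Among 6 members that act on or carry lipids, with progranulin, 5 were tested, 2 of them higher and 1 lower. Grn encodes progranulin, a secreted and lysosomal protein that is cut into granulins (chromosome 11, 102430507 to 102436809). Its 4 shCtrl libraries were at 431, 407, 407 and 468 CPM and its 4 shTlr7 libraries at 729, 666, 682 and 603 CPM. The gap between the groups was wider than the range within either, and Grn rose 1.56-fold with the lowest p among the members (log2 fold change 0.65 ± 0.06, edgeR adjusted p = 1.38e-06). Ppt1, a thioesterase that removes palmitate from proteins (chromosome 4, 122836077 to 122859175), rose from 72.3, 77.5, 75.7 and 75.6 CPM to 98.3, 97.5, 96.5 and 92.2 CPM, again with no overlap. Its log2 fold change was 0.35 ± 0.04 (edgeR adjusted p = 9.78e-06).

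Psap, the precursor of the saposins that help lipid hydrolases reach their substrates, fell from 886 ± 37.6 to 783 ± 37.6 CPM (log2 fold change -0.18, edgeR adjusted p = 0.00503), a call lost with library size alone (-0.075, adjusted p = 0.173). The cholesterol carrier Npc2 had a log2 fold change of -0.030 and the acid lipase Lipa of 0.15 (edgeR adjusted p = 0.0738). Without both libraries numbered 4, Lipa and Manba passed as higher (0.18 and 0.17, edgeR adjusted p = 0.0224 and 0.00827).

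Asah1, which encodes acid ceramidase, had between 0 and 11 counts per library in its own row, while a second row with the same symbol and a numbered suffix, Asah1_1, held 1795 to 9809 counts. No header explains the suffix. If it is read as a further copy of the gene and the rows are summed, Asah1 stood at 100 ± 3.62 CPM in shCtrl and 98.1 ± 3.81 CPM in shTlr7 (log2 fold change -0.040, edgeR adjusted p = 0.462). The other members' calls were the same with copies summed.

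Each of the 2 proton pump subunits rose. Atp6v0d1, a subunit of the membrane-bound sector (chromosome 8, 105524461 to 105566064), went from 51.4, 48.9, 52.1 and 54.3 CPM to 77.4, 71.9, 73.6 and 66.7 CPM. All shTlr7 values were above all shCtrl values, with a log2 fold change of 0.49 ± 0.05 (edgeR adjusted p = 4.79e-06). Atp6v1h, a regulatory subunit of the cytosolic sector, rose from 51.4 ± 2.84 to 68.3 ± 5.20 CPM (log2 fold change 0.41).

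The transcription factors themselves differed little. Tfe3 (chromosome X, 7762530 to 7775202) had 89.0, 86.4, 84.5 and 86.0 CPM in shCtrl and 96.1, 97.3, 96.1 and 94.1 CPM in shTlr7, which do not overlap, and rose by a log2 fold change of 0.15 ± 0.04 (edgeR adjusted p = 0.00454). For Tfeb (chromosome 17, 47737037 to 47792416) the values were 19.1, 16.3, 16.6 and 19.1 CPM against 17.9, 19.0, 19.1 and 20.1 CPM. These overlap, and its log2 fold change of 0.11 ± 0.07 did not pass (edgeR adjusted p = 0.209). Tfeb passed as higher with libraries scaled by size alone (0.213, edgeR adjusted p = 0.0226) and with limma-voom (0.145, adjusted p = 0.0490). RNA levels do not show where these proteins are in the cell or whether they are active.

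**Figure D3:**
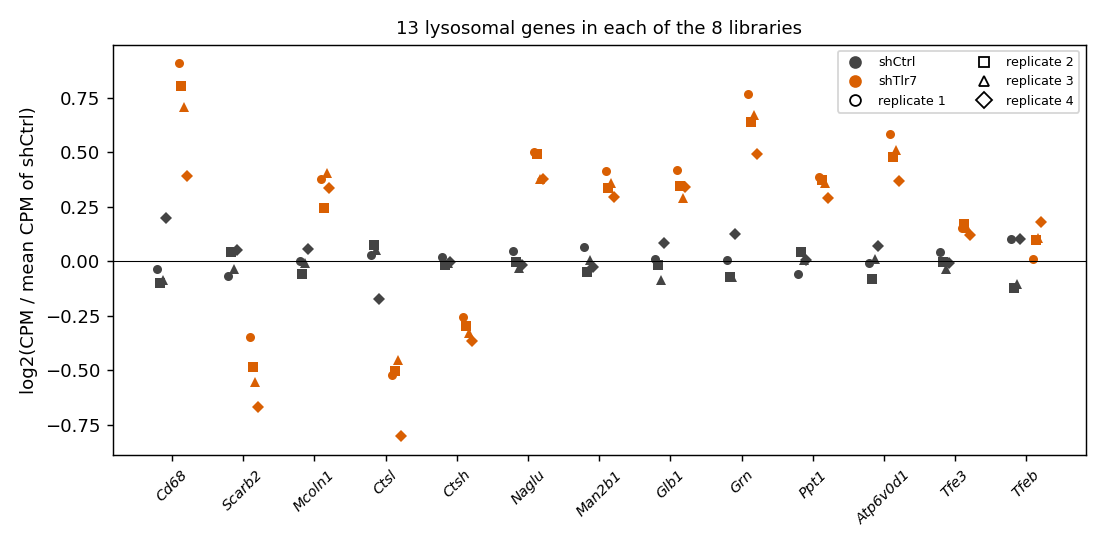
Level of 13 members in each library as log2 of CPM over the mean CPM of shCtrl (y axis), with colour for the group and marker shape for the replicate number. Groups are separate for 12 genes and overlap for Tfeb; shTlr7 replicate 4 is the lowest shTlr7 library for 9 of the 13.

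Libraries of a group also differed across the members together. In shTlr7 replicate 1, 28 of the 32 members were above their mean over the shTlr7 libraries, and in shTlr7 replicate 4, 3 of the 32 were. The 6 other libraries had 11 to 21 members above their group mean. This count was not made over all tested genes, so a shift of the members cannot be told apart from one of the whole library. Without shTlr7 replicate 4, 18 members were higher and 7 lower, and of all 13350 genes then tested 3898 were higher and 3616 lower.

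Levels of different genes were compared per kilobase of exon, with lengths from GENCODE M21 that count every annotated exon once and so understate genes with long unused exons. In shCtrl, the highest members were Psap (323 ± 13.7 CPM per kb), Ctsl (269 ± 20.5), Ctsz (239 ± 6.88), Ctsd (213 ± 11.6) and Lamp1 (211 ± 4.35 CPM per kb). Ctsd and Lamp1 did not differ beyond their spread. Lowest were Hexa (4.66 ± 0.219), Npc1 (4.48 ± 0.207) and Tfeb (3.13 ± 0.269 CPM per kb), of which Hexa and Npc1 lay within each other's spread. In shTlr7, Psap (285 ± 13.7) and Ctsz (279 ± 12.5 CPM per kb) were within each other's spread, Lamp1 came next (249.8 CPM per kb), and Ctsl had moved from second to sixth place (182 ± 18.9 CPM per kb).

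**Figure D4:**
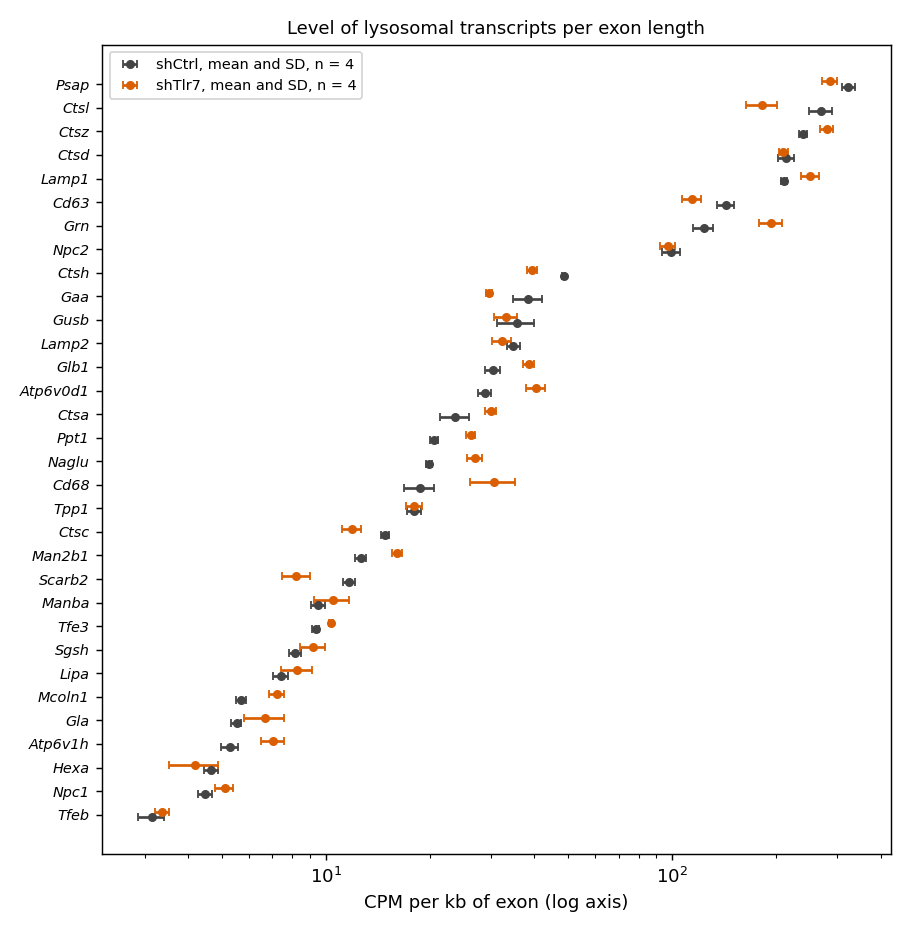
Mean and SD (n = 4 libraries) of CPM per kb of exon for the 32 tested members, on a log axis, ordered by the shCtrl level. Members span from about 3 CPM per kb for Tfeb to 323 CPM per kb in shCtrl and 285 CPM per kb in shTlr7 for Psap.

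The summed CPM of the 33 members did not follow the count of calls. It lay between 7557 and 7732 CPM in shCtrl, and at 7592, 7415, 7373 and 6793 CPM in shTlr7 replicates 1 to 4. Replicate 1 of shTlr7 alone lay within the shCtrl range and the rest lay below it, although more members were higher than lower. The sum weighs abundant genes most, and Ctsl alone went from a mean of 1744 to 1180 CPM.

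The E-box was set beside the calls. Of the 14 members with a promoter that were called higher, 8 held TCACGTG, as did 1 of 6 called lower (Gaa) and 1 of 9 not past the threshold (Ctsd). Over all tested genes the shares were 7.39% of 3138 called higher, 6.25% of 2750 called lower and 6.85% of 4511 not called. Among other lysosomal membrane proteins, TCACGTG was present for 4 of 14 called higher and 3 of 7 not called. Among other glycosidases, sulfatases and lipid hydrolases, it was present for 0 of 9 called higher and 2 of 13 not called. The same counts were 2 of 3 and 0 of 2 for other lysosomal proteases, and 2 of 9 and 1 of 2 for other V-ATPase subunits. They were 4 of 12 and 4 of 13 for delivery to the lysosome. For regulation of TFEB they were 3 of 12 and 2 of 8, and for autophagy 1 of 16 and 1 of 9. The full palindromic CLEAR sequence, the core with GT before it and AC after it, was found for 0 of the 29 members, against 82 of 10399 tested genes (0.789%). At so low a share, a count of 0 among 29 does not set the members apart. That full sequence was found for 4 of 25 genes for delivery to the lysosome (3 of 12 called higher, 1 of 13 not called). It was also found for 1 of 24 other lysosomal membrane proteins. The element was described from promoters of lysosomal genes in the first place, so its share among the members is not independent of how such genes are chosen. A match of letters is no measured binding.

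The neighbouring genes of the pathway were mostly called higher where they were called. Over 7 further lists, 106 of 176 tested genes passed the threshold (60.2%, near the 56.1% of all tested genes). Of the 176, 90 were higher and 16 lower, or 51.1% and 9.09%, against 29.3% and 26.8% of all tested genes. The lists were chosen with earlier results of these data known, so this split is no independent result. Of 15 other V-ATPase subunits tested, 11 were higher and 1 lower, with a median log2 fold change of 0.26. The lowest p were those of the membrane-sector subunits Atp6v0a1 (40.8 ± 2.31 to 71.7 ± 2.33 CPM, 1.76-fold), Atp6v0a2 (46.4 ± 1.63 to 64.2 ± 2.66 CPM) and Atp6v0b (67.1 ± 2.17 to 90.2 ± 5.12 CPM).

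Other lysosomal membrane proteins followed a similar split, with 17 of 30 higher and 4 lower (median 0.26). Among them, Sidt2 rose from 153 ± 4.62 to 203 ± 5.00 CPM, and the transporter Mfsd12 from 7.87 ± 1.61 to 18.6 ± 1.46 CPM, with 29.8% of Mfsd12 exon bases shared with other annotated genes. Of 33 other glycosidases, sulfatases and lipid hydrolases, 13 were higher and 5 lower (median 0.089). Galc, which removes galactose from ceramide lipids, fell from 66.9 ± 2.00 to 40.3 ± 3.59 CPM, while Naaa, an amidase of fatty acid ethanolamides, rose from 10.5 ± 0.883 to 18.4 ± 0.953 CPM and the nuclease Pld3 rose 1.56-fold.

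Of 7 other lysosomal proteases tested, 3 were higher and 1 lower. The fall was that of Ctsw, a cathepsin best known from cytotoxic lymphocytes, from 26.2 ± 1.67 to 3.06 ± 0.871 CPM (log2 fold change -3.08 ± 0.13, edgeR adjusted p = 3.60e-09). The T cell marker Cd3e, read from the row of its exact symbol, was at 0 CPM in shCtrl and 0.0143 CPM in shTlr7. Whether lymphocytes bear on the fall of Ctsw was not tested. Prcp and Dpp7, peptidases that cut next to proline, rose 1.58-fold and 1.74-fold.

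Of 33 genes for the delivery of enzymes and membranes to the lysosome, 13 were higher and 1 lower, and 42.4% were called, below the share of all tested genes. The 2 mannose 6-phosphate receptors moved apart: M6pr, the cation-dependent receptor, fell from 136 ± 4.80 to 96.5 ± 3.47 CPM (log2 fold change -0.49, edgeR adjusted p = 5.04e-07), and Igf2r, the cation-independent receptor, rose from 297 ± 16.98 to 402 ± 24.3 CPM (0.43, edgeR adjusted p = 1.12e-05). The adaptor subunit Ap1b1 rose from 87.9 ± 1.57 to 109 ± 2.99 CPM. With libraries scaled by size alone, this list had 22 calls in place of 14. Calls over all tested genes rose as well under that scaling, to 8004 from 7517, and their median log2 fold change was 0.115.

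Of 25 genes that regulate TFEB at the lysosome, 14 were higher and 2 lower (median 0.18). Lamtor2 and Lamtor4, parts of the Ragulator scaffold that recruits the kinase mTORC1 to the lysosome, rose from 35.4 ± 1.43 to 47.0 ± 2.27 CPM and from 18.2 ± 0.956 to 24.8 ± 1.10 CPM. Ppp3cb, a catalytic subunit of calcineurin, the phosphatase that activates TFEB, fell from 182 ± 6.83 to 135 ± 4.59 CPM. Of 33 autophagy genes, 19 were higher and 2 lower (median 0.20), led by Atg9a (75.2 ± 2.17 to 113 ± 4.90 CPM), Atg4d (19.8 ± 2.04 to 34.7 ± 0.597 CPM) and Atg5 (32.3 ± 1.67 to 45.6 ± 1.23 CPM). For Atg9a, 32.6% of exon bases overlap other annotated genes, and for Atg4d 19.3%.

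**Figure D5:**
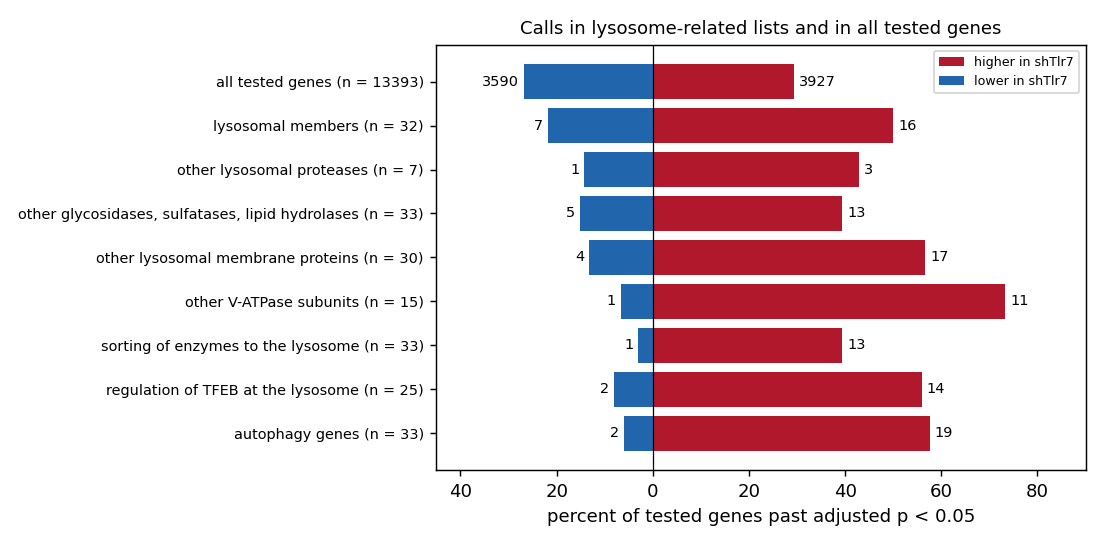
Percent of tested genes called higher (right) or lower (left) in shTlr7 for all tested genes, the members and 7 further lists, with the number of genes beside each bar. In all tested genes 29.3% were higher and 26.8% lower; among the members 16 of 32 were higher and 7 lower, and in each of the 7 further lists more genes were higher than lower.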

How the data were processed

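RNA-seq was made from 8 libraries of 4T1 spheroids, with groups and replicate numbers from the sample titles. The authors deposited whole-number read counts per gene, not normalized. Listed in the submitters' processing notes, without roles, are GRCm38, DESeq2 1.32.0 and STAR 2.7.5. How reads were counted, by strand or not and on which annotation, is not stated in these sources. Reads of overlapping and antisense genes therefore cannot be told apart.

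From these counts, rows were kept by filterByExpr (13393 genes), scaled by TMM and tested with edgeR 4.0.16 in R 4.3.3 (robust quasi-likelihood test, group as the only term). P-values were adjusted over all tested genes (Benjamini-Hochberg) with a threshold of 0.05. SE is the log2 fold change over the square root of F. The test was checked on simulated data. CPM was computed here, as mean ± SD over 4 libraries per group. Totals of 18.1 to 93.8 M counts set the precision. Gene positions and promoters are from RefSeq (GRCm38.p6). Exon lengths and overlaps come from GENCODE M21.

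The members and lists were chosen with earlier results of these data known. Named genes are all members, Tlr7, the 3 called genes of lowest p in each further list, and the highest marker of each marker list; 1 gene that this rule names is not reported here. Values per library are given for members with a fold past 1.5 or among the 10 lowest p, and for Tfeb and Tfe3. Ptprc, Cd3e, Csf1r, Mrc1, Itgam, Fcgr1, Fcer1g, Fcgr3, the other epithelial markers and the leukocyte markers without counts were named after their values were seen. Alternatives were other scalings, DESeq2 1.42.0, limma-voom (limma 3.58.1), other filters and thresholds, a replicate block, summed copies, thinned libraries and libraries left out. No protein sequences were used here.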

Additional observations from a re-analysis of the deposited data

Results flagged for a closer look

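In 5 of 64 sets of 4 libraries (32 members in each group), a single library lay far from the other 3; chance flags about 1 in 20 such sets. Lamp1 stood at 547 CPM in shCtrl replicate 4, below 569 to 571 CPM in the others. Ctsc was at 75.6 CPM in shTlr7 replicate 1, above 66.2 to 67.1 CPM. Gusb was at 132 CPM in shCtrl replicate 4, below 169 to 175 CPM. Tpp1 was at 99.1 CPM in shCtrl replicate 4, above 90.1 to 90.9 CPM. Atp6v1h was at 60.5 CPM in shTlr7 replicate 4, below 70.5 to 71.5 CPM. The 5 cases came from 3 libraries: shCtrl replicate 4 in 3 cases, and shTlr7 replicates 1 and 4 in 1 case each.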

How the results depend on the processing

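Of the 23 called members, 21 kept direction and call in all 19 alternatives other than the stricter threshold and the fold test; Psap and Sgsh were the exceptions. The number of members called ranged from 20 to 26 across alternatives other than the fold test, and from 22 to 25 when 1 library was left out. Calls over all tested genes ranged from 5801 to 8575 across the same alternatives, and from 6705 to 7862 when 1 library was left out. Testing against a fold of 1.5 left 1138 calls over all 13393 tested genes (472 higher, 666 lower). It left 0 among the 32 tested members (0 higher, 0 lower) and 9 of 106 in the further lists. Adjusted p under 0.01 took away the calls of Gla, Npc1 and Sgsh. The sign changed for Ctsd, Npc2, Gusb and Tpp1, none of which was called in the main fit. Ctsd was at 0.0771 with library size only, 0.0139 with limma-voom and 0.0186 without both libraries numbered 4, and from -0.0526 to 0.0034 with 1 library left out (positive without shCtrl replicate 4). Npc2 was at 0.0739 with library size only, 0.015 with limma-voom, and from -0.0605 to 0.0037 with 1 library left out (positive without shCtrl replicate 4, at 1e-04, and without shTlr7 replicate 3). Gusb was at 0.0017 with library size only. It passed as lower with limma-voom (-0.160, adjusted p = 0.0198) and without both libraries numbered 4 (-0.158, edgeR adjusted p = 0.00348). It also passed as lower without shCtrl replicate 4, as given above. Tpp1 was at -0.0085 with RLE scaling, -0.009 with DESeq2, -0.0035 with a minimum of 1 CPM in 4 libraries, -0.0025 with copies summed, -0.0125 with thinned libraries, and from -0.0223 to 0.0332 with 1 library left out. The cause was not tested. Deviations of same-numbered libraries from their group means correlated across genes at -0.007, 0.114, 0.118 and 0.380 for numbers 1 to 4. Numbers 3 and 4 correlated best with their own number and numbers 1 and 2 did not, so a pairing was not established for every number. With the replicate number as a block, 25 members (17 higher, 8 lower) and 8339 genes in all were called, with Lamp2 (adjusted p = 0.0351) and Lipa (0.0237) gained.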
